A study of Drosophila melanogaster with 42 samples.

Results

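The named enhancers without a pattern class are stretches of fruit fly DNA that carry the name of a known or tested enhancer but no entry for where in the embryo they are active. They were taken from the deposited comparison tables as the regions with an enhancer name in the table for zld- and an empty pattern field in the table for gd7, joined by region. There were 2255 of them among the 20935 tested regions. A further 18585 regions had neither a name nor a pattern class, and 95 had a pattern class. No measured value entered the choice among the tested regions, which are themselves peaks of wild-type embryos, as described below. The assay was ATAC-seq, in which the transposase Tn5 cuts open DNA and tags it for sequencing. The 42 libraries came from whole embryos of 4 genotypes: the wild-type stock Oregon-R (OreR), zld-, gd7 and cic6. After egg laying, OreR, zld- and gd7 embryos were staged to 1 to 1.5, 1.5 to 2, 2 to 2.5 and 2.5 to 3 h, while cic6 embryos cover the last 2 of these windows. Every one of the 14 groups had 3 libraries. A library took 400 embryos at 1 to 1.5 h, 100 at 1.5 to 2 h and 40 afterwards. The labels give no further allele, transgene or agent for any genotype. The origin of the zld- embryos is not stated, and the names of their files refer to RNAi and depletion, so some Zelda protein may remain.

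An enhancer is a stretch of DNA that raises the transcription of a gene when transcription factors bind it. In the early fly embryo the maternal protein Zelda binds many enhancers before the zygotic genome is switched on and helps to open them. The gene gd encodes a maternal protease that acts upstream of the nuclear gradient of Dorsal, the factor that sets fates from belly to back. The gene cic encodes Capicua, a repressor that receptor tyrosine kinase signalling relieves at the ends and sides of the embryo.

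Names of the form VT followed by a number made up 1752 of the 2255 named enhancers (77.7%). Such names are those of the Vienna Tiles, genomic fragments tested one by one in reporter embryos. A further 453 (20.1%) were named after a gene, such as eve_stripe2, 40 (1.77%) were called Unspecified with a code and 10 began with GJ. The 2255 regions carried 2137 distinct names, because 114 names stood on more than 1 region, so that 232 regions shared a name and can share sequence of one fragment. The median distance to the closest protein-coding gene end was 4909 bp, against 3809 bp for the unnamed regions. It was 5756 bp for VT names and 1385 bp for gene names. Within 500 bp of such a gene end lay 15.4% of the named enhancers and 21.9% of the unnamed regions. The median of the mean normalized count in the authors' deposited table for zld- was 756 for the named enhancers, 769 for unnamed regions and 1706 for the regions with a pattern class. By kind it was 691 for VT names, 1049 for gene names and 1517 for Unspecified names. Because counts differ between kinds, unnamed regions are compared below at equal mean normalized count, except beside the gene lists and where all unnamed regions are named. Every tested region was 2114 bp long, with the same coordinates in the 3 tables. By the names of the files the regions are peaks of OreR embryos, of 1 to 3 h in the tables for zld- and gd7 and of 2 to 3 h in that for cic6. A site open in a mutant alone therefore falls outside these tables.

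The libraries listed between 6831 and 58137 peaks. The zld- libraries of 1 to 1.5 h stood apart from each other, with 21324, 41668 and 6831 peaks in replicates 1, 2 and 3. The authors' fold changes of that window rest on these libraries, and no fit without one of them can be made from the deposited values. Their part in the results of that window was not tested. Read depth per library is unknown here. The 3 mutants share their OreR libraries, so a deviation of an OreR group enters each comparison of its window. In whole embryos, less accessibility per nucleus and fewer nuclei in which a region is open cannot be told apart.

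In zld- embryos the named enhancers were called less accessible more often than unnamed regions of equal count in every window, and the gap was widest in the youngest embryos. In the authors' deposited table for zld-, 620 of 2255 (27.5%) were lower at 1 to 1.5 h at an adjusted p under 0.05, against 14.3% of unnamed regions of equal count and 15.6% of all tested regions. At 1.5 to 2 h the authors' deposited table had 236 lower (10.5%), against 7.09% of unnamed regions and 7.49% of all regions. There were 409 lower (18.1%) at 2 to 2.5 h, against 12.8% and 13.4%. At 2.5 to 3 h there were 498 lower (22.1%), against 16.3% and 17.1%. Higher calls were fewer than among unnamed regions in each window, with 105, 70, 128 and 255 named enhancers (4.66%, 3.1%, 5.68% and 11.3%) in order of age. The unnamed regions of equal count had 10.8%, 4.75%, 7.91% and 13.9% higher, and all tested regions 10.4%, 4.66%, 7.82% and 14.0%. Higher calls made up 22.9% of the named enhancers' calls at 1.5 to 2 h, a share that was 11.3% with fold changes centred on the median of all regions and 8.83% with their trend over mean count removed. The regions with a pattern class were lower still more often, with 51.6%, 49.5%, 58.9% and 67.4% called lower in the 4 windows. These shares are descriptions over regions, which are not replicates, and carry no p-value.

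The shift in zld- was also visible in the medians. The median log2 fold change of the named enhancers lay below that of unnamed regions of equal count by 0.106 at 1 to 1.5 h, where the named enhancers stood at a median of -0.12 and ranged from -1.99 to 2.14. In the 3 later windows the difference of medians was -0.050, -0.050 and -0.035. The gap was present at both distances from genes: within 500 bp of a gene end 27.9% were lower at 1 to 1.5 h against 18.5% of unnamed regions of equal count there, and farther away 27.4% against 13.8%. On the X chromosome 14.4% of 341 named enhancers were lower at 1 to 1.5 h, and 6.94% of its unnamed regions of equal count. This gap on the X was not kept, with 9.09% against 8.76% at 2 to 2.5 h and 11.1% against 12.2% at 2.5 to 3 h. On arm 2R 36% of 408 were lower at 1 to 1.5 h against 16.6%, and 25.5% against 14.9% at 2.5 to 3 h.

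**Figure D1:**
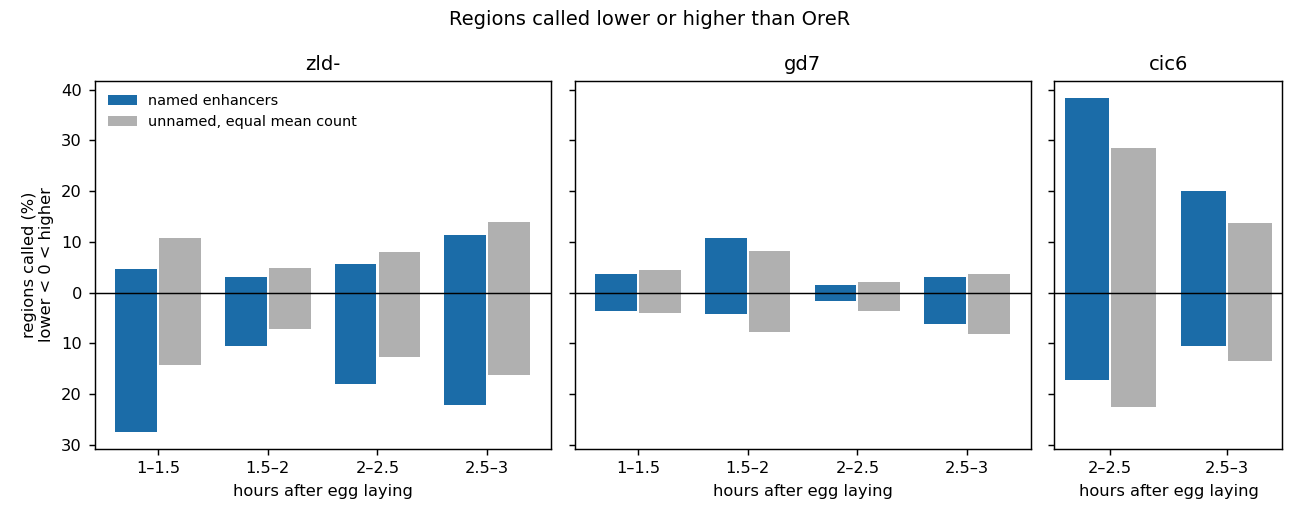
Share of regions called lower (below 0) and higher (above 0) in each mutant and window at an adjusted p under 0.05 in the authors' deposited tables, in percent, for the named enhancers and for unnamed regions of equal mean normalized count. In zld- at 1 to 1.5 h 27.5% of the named enhancers are lower against 14.3% of unnamed regions, and in cic6 at 2 to 2.5 h 38.4% are higher against 28.5%.

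The time at which zld- differed from OreR varied among the named enhancers. The authors' deposited table held 620 lower at 1 to 1.5 h, of which 288 were also lower at 2.5 to 3 h. Lower in the first window alone were 310 (13.7%), against 6.9% of unnamed regions of equal count and 7.53% of all regions. Lower in both of the last windows but not in the first were 113 (5.01%), close to the 4.71% of unnamed regions of equal count and the 4.87% of all regions. Lower in every window were 156 (6.92%), against 4.05% of unnamed regions of equal count and 4.31% of all regions, and 23 were higher in every window (1.02%), against 2.11% and 1.98%. The difference between the first and the last window was tested for each region from the deposited fold changes and their standard errors, with adjustment over all regions. The fold change rose in 247 named enhancers (11%), against 4.56% of unnamed regions of equal count and 5.44% of all regions, and 193 of these were among the 620. It fell in 99 (4.39%), against 4.62% and 4.76%.

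The kinds of name differed in zld-. At 1 to 1.5 h the authors' deposited table had 40.4% of the 453 gene-named enhancers lower, against 18.6% of unnamed regions of equal count and 33.6% of VT-named ones of equal count. Of the 1752 VT-named enhancers 23% were lower, against 13% of unnamed regions. Gene-named enhancers were lower in the first window alone in 22.1%, against 9.17% of unnamed regions of equal count. For VT-named ones it was 11.2%, against 6.22%. For this timing the kinds were not compared with each other at equal count. By the last window the shares lower were 24.7% and 20.7%, and VT-named enhancers of the same count as the gene-named ones had 24.8%, so no gap between these kinds was seen at equal count. At 2 to 2.5 h, too, gene-named enhancers had 21.2% lower and VT-named ones of equal count 20.7%. The 40 Unspecified enhancers were lower in 28, 19, 21 and 22 cases in the 4 windows, where unnamed regions of equal count had 22.4%, 9.33%, 14.7% and 18.1% lower.

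**Figure D2:**
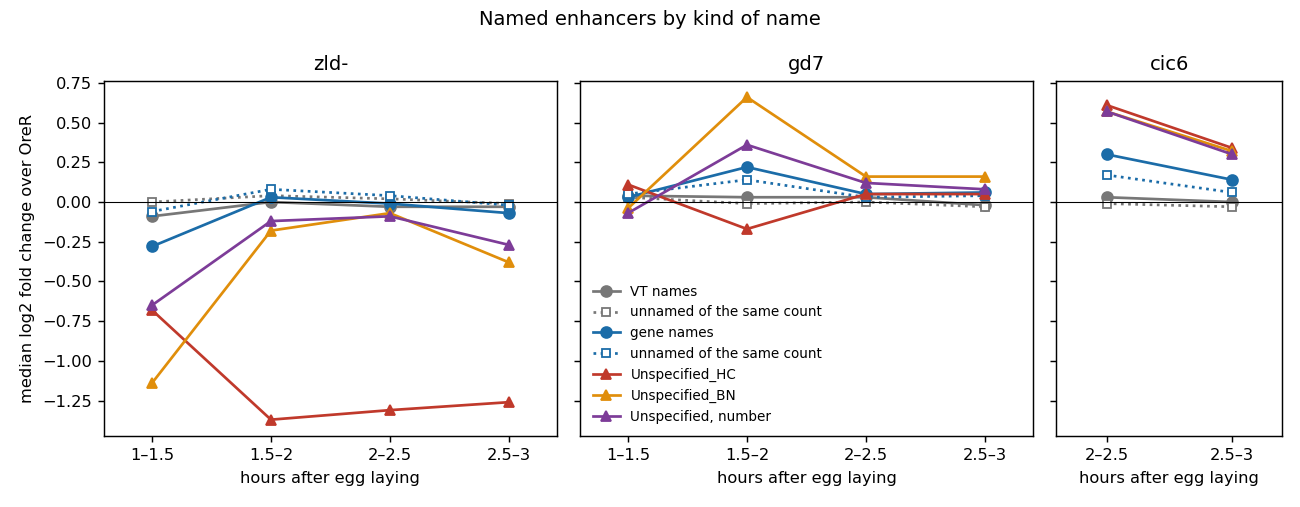
Median log2 fold change over OreR in the authors' deposited tables by kind of name, mutant and window, with VT-named and gene-named enhancers as filled circles, unnamed regions of equal mean normalized count as open squares, and Unspecified names as triangles by the start of their code. In zld- the HC names stay between -0.68 and -1.37, while the BN names lie at -1.14 at 1 to 1.5 h and at -0.38 at 2.5 to 3 h.

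Codes of the Unspecified names went with different courses over time. The 19 whose code begins with HC, with a median distance of 965 bp to a gene end, were lower in zld- in 13, 17, 17 and 17 cases in order of age. Their median log2 fold changes in the authors' deposited table were -0.68, -1.37, -1.31 and -1.26, and 7 of them fell between the first and the last window. HC_13, 53 bp from an end of sisA, an X-linked gene that counts X chromosomes for sex determination, was at -1.07, -2.22, -2.12 and -2.14 and lower in every window. HC_21 near Elba2, which encodes a subunit of an early insulator complex, was at -1.09, -1.37, -2.07 and -1.97. HC_06 near upd1, which encodes a ligand of the JAK/STAT pathway, was at -0.34 in the first window, which did not pass, and at -1.25, -1.37 and -1.16 later. The 7 whose code begins with BN lay at a median of 10949 bp from a gene end, over a range of 940 to 35440 bp. All 7 were lower at 1 to 1.5 h, and 0, 1 and 2 in the later windows, with medians of -1.14, -0.18, -0.07 and -0.38. The fold change of 5 of the 7 rose between the first and the last window. BN119-sm near Him, a gene of muscle progenitors, was at -1.18 in the first window, where it was lower, and at 0.02, -0.07 and -0.35 in the later windows, none of which passed. The remaining 14 have a number as code and were lower in 8, 2, 3 and 3 cases. One of them, Unspecified_2045 near hth, which encodes a cofactor of Hox proteins, was lower in every window at -1.45, -0.92, -1.29 and -1.14. Of the HC names 1 was higher at 2.5 to 3 h, HC_52 at 0.25. BN5-lf and BN5-rt are neighbours on arm 3L, and HC_04 and HC_05 on arm 2L, so the regions of a code are not all separate loci. The codes were looked at after these values had been seen.

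Of the named enhancers lower in every zld- window, the largest mean fall was at Unspecified_HC_22 (chr3R:31192390-31194503, dm6), whose nearest gene end, 84 bp away, is that of bnk, a gene of cellularization. Its log2 fold changes in the authors' deposited table were -1.57 (SE 0.29, adjusted p 8.93e-07), -2.42 (SE 0.28), -3.22 (SE 0.28) and -3.12 (SE 0.28), and the fall from first to last window was -1.55 (SE 0.40, adjusted p 0.00282). A peak was still listed there in 10 of 12 zld- and 12 of 12 OreR libraries. The htl_shadow enhancer (chr3R:18080079-18082192) is named after heartless, which encodes the FGF receptor of the early mesoderm. It had -1.36 (SE 0.27, adjusted p 8.83e-06), -2.02, -2.96 and -2.70 in the authors' deposited table, and the genes within 20 kb of it are bard, which it overlaps, and sr. The phyl_1126bp_CRM (chr2R:14429905-14432018) overlaps phyl, an adaptor gene of sensory organ and photoreceptor fate. In the authors' deposited table it stood at -1.93 (SE 0.25, adjusted p 4.45e-13), -1.64, -2.45 and -2.31. It had a peak in 0 of 3 zld- libraries at 1 to 1.5 h, in all 9 later ones and in all 12 of OreR.

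VT8990.1 (chr2L:17574105-17576218) is an intergenic tile whose nearest gene end, 14023 bp away, is that of Oli, a bHLH factor of motor neurons. It was lower in every window of every mutant. It stood at -1.66, -1.34, -2.07 and -2.47 in zld-, at -1.29, -1.42, -1.67 and -2.53 in gd7, and at -1.87 and -2.28 in cic6 in the authors' deposited tables, with standard errors of 0.12 to 0.19. Its decline from first to last window was -0.81 in zld- (SE 0.26, adjusted p 0.0265) and -1.24 in gd7 (SE 0.27, adjusted p 0.00197). The neighbouring tile VT8994.1 was also lower in every window of the 3 mutants, less far, at -1.21, -0.55, -0.98 and -1.32 in zld-, -0.75, -0.29, -0.44 and -0.85 in gd7, and -0.48 and -0.68 in cic6. Unnamed regions of the locus fell too. The one at chr2L:17588423-17590536 was lower in every zld- window, and at 2.5 to 3 h in gd7 (-0.72) and cic6 (-0.34). Another, at chr2L:17607166-17609279, did not pass at 2.5 to 3 h in any mutant. A peak at VT8990.1 was listed in 11 of 12 zld-, 12 of 12 gd7 and 6 of 6 cic6 libraries. The 3 comparisons share the OreR libraries, so an OreR deviation at this locus cannot be told apart from a change common to the mutants.

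The other named enhancers with a large change over the zld- windows moved in both directions. VT32774.1 (chr3L:18401696-18403809), 4317 bp from rpr, an activator of apoptosis, was at -1.82 (SE 0.13, adjusted p 1.35e-43) in the first window of the authors' deposited table and then at -0.11, -0.01 and 0.16, none of which passed. The change from first to last window was 1.98 (SE 0.17, adjusted p 2.88e-26). HLHmgamma_HZmgammaKX (chr3R:25998787-26000900), 8 bp from E(spl)mgamma-HLH, which encodes a repressor induced by Notch, had -1.49 (SE 0.15, adjusted p 1.98e-21), 0.06, 0.05 and 0.18 in the authors' deposited table, a rise of 1.67 (SE 0.21). Unspecified_HC_09 (chr2L:11074283-11076396) went the other way, from -0.61 (SE 0.24, adjusted p 0.041) through -1.50 and -2.36 to -2.37 in the authors' deposited table, a fall of -1.75 (SE 0.33, adjusted p 1.05e-05). The zld- libraries that stand apart belong to the first window, from which each of these differences is taken.

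Among the 23 named enhancers higher in every zld- window, the w_B4hsp-W element (chrX:2790319-2792432) overlaps w, the eye pigment transporter gene, and stood at 2.14 (SE 0.12, adjusted p 2.28e-69), 2.07, 2.13 and 2.23 in the authors' deposited table. In gd7 and cic6 the same region was between 0.01 and 0.29 and passed in no window. Next came y_BE3 (chrX:355393-357506), 60 bp from y, a gene of cuticle pigment, at 1.18 (SE 0.16), 0.77, 0.75 and 0.75 in the authors' deposited table. The nos_-85/+97 element (chr3R:19156337-19158450) overlaps nanos, a germline and posterior patterning gene, and had 0.63 (SE 0.11), 0.75, 0.78 and 1.19 in the authors' deposited table. The otu_otu:lacZ element (chrX:8488703-8490816), 224 bp from otu, a gene of egg formation, had 1.05 (SE 0.14), 0.47, 0.64 and 0.71. Tested regions on either side of w_B4hsp-W differed: VT55977.1 on the other side of w was higher at 1.10, 0.82, 0.77 and 0.84 in the authors' deposited table, while VT55983.1 at 0.22, -0.01, 0.11 and 0.31 and the unnamed region before w_B4hsp-W did not pass. The genes w and y are in common use as markers in laboratory stocks and transgenes, and DNA of nos and otu in germline transgenes. The labels give neither marker alleles nor transgenes for these stocks. Copy number of these loci was not measured, and its part in these values was not tested.

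In cic6 embryos the named enhancers were called more accessible more often than unnamed regions of equal count and less accessible less often. In the authors' deposited table for cic6, 867 of 2255 (38.4%) were higher at 2 to 2.5 h, against 28.5% of unnamed regions and 26.2% of all regions. Lower were 387 (17.2%), against 22.5% and 22.8%. At 2.5 to 3 h 452 (20%) were higher, against 13.8% and 14.0%, and 240 (10.6%) were lower, against 13.4% and 13.7%. The median log2 fold change exceeded that of unnamed regions of equal count by 0.060 and 0.038. Fold changes in this table vary with mean normalized count. With that trend removed over all regions, 464 named enhancers (20.6%) were higher at 2 to 2.5 h, against 12.1% of unnamed regions of equal count, and 105 were lower (4.66%), also against 12.1%. Higher calls made up 69.1% of the calls at 2 to 2.5 h as deposited and 81.5% with the trend removed. Most changes were small: 30 higher and 7 lower calls at 2 to 2.5 h reached a log2 size of 1.

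In both cic6 windows 413 named enhancers were higher (18.3%, against 11.7% of unnamed regions of equal count and 11.8% of all regions), and 162 were lower (7.18%, against 10.7% and 10.8%). Gene-named enhancers were higher at 2 to 2.5 h in 54.5% of cases in the authors' deposited table, against 41% of unnamed regions of equal count and 55.2% of VT-named ones of equal count. Of all VT-named enhancers 33.3% were higher there, so the gap between the kinds was not seen at equal count. Of the 40 Unspecified enhancers 31 were higher at 2 to 2.5 h (77.5%, against 58.3% of unnamed regions of equal count) and 15 at 2.5 to 3 h (37.5%, against 19.9%). Between the cic6 windows 6 named enhancers fell (0.266%), against 0.115% of all regions, of which a further 0.0334% rose.

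Of the named enhancers higher in both cic6 windows, the largest mean rise was at VT16968.1 (chr2R:15032299-15034412), a tile inside hbs, a cell adhesion gene of myoblast fusion, with 1.66 (SE 0.14, adjusted p 3.21e-30) and 1.04 (SE 0.14, adjusted p 2.81e-12) in the authors' deposited table. VT12716.1 (chr2R:6827206-6829319), 94 bp from CG15236, followed with 1.04 (SE 0.09) and 1.24 (SE 0.09). VT42353.1 (chr3R:15993461-15995574), 8365 bp from the nearest end of srp and overlapping that gene, had 1.35 (SE 0.16, adjusted p 9.86e-15) and 0.84 (SE 0.16, adjusted p 3.92e-06) in the authors' deposited table. The gene srp encodes the GATA factor of endoderm, fat body and blood. VT30298.1 (chr3L:13644359-13646472), inside bru3, an RNA-binding protein gene, had 1.04 (SE 0.10) and 1.10 (SE 0.10). A peak was listed at each of these 4 regions in 6 of 6 cic6 libraries and in 6 of 6 OreR libraries of the same windows.

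The lowest value in cic6 belonged to VT55977.1 (chrX:2795031-2797144), which overlaps w and kirre. The authors' deposited table gave -5.10 (SE 0.25, adjusted p 1.18e-88) and -8.91 (SE 0.73, adjusted p 1.05e-31), fitted values that are no bound on the change. A peak was listed there in 0 of 6 cic6 libraries, 6 of 6 OreR libraries of the same windows, 11 of 12 zld- and 11 of 12 gd7 libraries. On its sides w_B4hsp-W, at 0.22 and 0.24, passed in neither cic6 window of the authors' deposited table, and VT55983.1 was at 0.09, which did not pass, and at 0.46, which was higher. A missing stretch of DNA in the stock and closed chromatin cannot be told apart here. VT45971.1 (chr3R:22864380-22866493), 19134 bp from CG4704, was at -1.32 (SE 0.11) and -1.54 (SE 0.11) in the authors' deposited table, with a peak in 2 of 6 cic6 libraries. VT43414.1 (chr3R:17985854-17987967), inside cpo, an RNA-binding protein gene of the nervous system, had -1.42 (SE 0.12) and -1.28 (SE 0.12), with a peak in 3 of 6.

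In gd7 embryos the named enhancers were called less often than unnamed regions of equal count in both directions, except for higher calls at 1.5 to 2 h. Of the 2255, 2252 had a p-value in the table for gd7, and shares are over these. At 1 to 1.5 h, 81 were lower and 81 higher in the authors' deposited table (3.6% each), against 3.97% and 4.37% of unnamed regions and 4.01% and 4.47% of all regions, so that both counts are near the background. At 1.5 to 2 h 93 were lower (4.13%), against 7.69% and 7.47%, and 244 were higher (10.8%), against 8.14% and 7.86%. At 2 to 2.5 h 36 were lower (1.6%), against 3.63% and 3.45%, and 35 were higher (1.55%), against 2.1% and 2.09%. At 2.5 to 3 h 141 were lower (6.26%), against 8.23% and 8.19%, and 68 were higher (3.02%), against 3.75% and 3.81%. The excess of higher calls at 1.5 to 2 h shrank to 119 of 2252 (5.28%), against 4.7% of unnamed regions, once the trend over mean count was removed. Higher calls were 50% of the calls at 1 to 1.5 h as deposited, 37.9% after centring and 36.3% without the trend. Removing the trend changed this share at 2 to 2.5 h (49.3%, then 37.9%) and at 2.5 to 3 h (32.5%, then 48.7%).

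Lower in every gd7 window were 14 named enhancers (0.622%, against 2.17% of unnamed regions of equal count and 1.96% of all regions), each of them a VT tile. Higher in every window were 7 (0.311%, against 1.01% and 0.956%), 5 VT tiles and 2 gene-named ones. At 2.5 to 3 h 128 of the VT-named enhancers were lower in the authors' deposited table (7.31%, against 9.01% of unnamed regions of equal count) and 11 of the gene-named ones (2.43%, against 5.89%). Between the first and last window the fold change rose in 19 (0.844%, against 0.306% of all regions) and fell in 22 (0.977%, against 0.793%). With fold changes centred 23 rose and 12 fell, and with the trend removed 20 rose and 9 fell, so the balance of directions turned.

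After VT8990.1 the lowest of the 14 was VT20837.1 (chr2R:22463909-22466022), inside CG10384, at -1.24 (SE 0.15, adjusted p 5.94e-14), -1.11, -1.03 and -1.60 in the authors' deposited table for gd7. It was also lower in every zld- window, at -0.89, -0.75, -1.18 and -1.15. VT45971.1 had -0.94 (SE 0.13), -0.83, -1.06 and -1.71 in gd7 and was lower in every window of the other mutants too, with -1.07, -0.80, -1.18 and -1.52 in zld- in the authors' deposited table. A peak was listed there in 11 of 12 OreR, 3 of 12 gd7 and 4 of 12 zld- libraries. VT48629.1 (chr3R:27996852-27998965), 7157 bp from CG4815, was at -0.64 (SE 0.15), -0.92, -1.01 and -1.38 in gd7, at -0.71, -0.70, -1.37 and -1.34 in zld- and at -0.95 and -1.43 in cic6 in the authors' deposited tables, all lower. Here too the shared OreR libraries enter all 3 comparisons.

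VT30298.1, named above for cic6, had the largest mean rise of the 7 higher in every gd7 window, with 1.16 (SE 0.12, adjusted p 3.1e-20), 0.96, 1.40 and 1.90 in the authors' deposited table, and rose by 0.74 between the first and last window (SE 0.16, adjusted p 0.0026). VT57471.1 (chrX:5831192-5833305), overlapping CG15765, had 0.91 (SE 0.14), 0.57, 0.78 and 0.83 in gd7 in the authors' deposited table, with a peak in 12 of 12 gd7 and 7 of 12 OreR libraries. The ush_1809/7908 element (chr2L:530529-532642) lies in ush, a partner gene of GATA factors in the dorsal ectoderm, and had 0.70 (SE 0.14, adjusted p 4.23e-05), 0.66, 0.52 and 0.65 in the authors' deposited table, and 0.55 in each cic6 window. VT8263.1 (chr2L:16162214-16164327), 2561 bp from Ca-alpha1D, a calcium channel gene, had 0.42 (SE 0.13), 0.55, 0.71 and 0.83. The largest falls over the gd7 windows were at VT8510.1 (chr2L:16638111-16640224, inside mtgo) and at VT41876.1 (chr3R:15038423-15040536, 1330 bp from RpL10Aa). VT8510.1 went from 0.20 through -0.01 and -0.61 to -1.27 in the authors' deposited table, a change of -1.47 (SE 0.42, adjusted p 0.0431) that did not pass after centring or without the trend. VT41876.1 went from -0.05 through -0.21 and -0.56 to -1.35, a change of -1.29 (SE 0.21, adjusted p 2.65e-06). At VT41876.1 OreR libraries had a peak in 0, 0, 1 and 3 of 3 libraries in order of age, and gd7 libraries in 0 of 12.

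**Figure D3:**
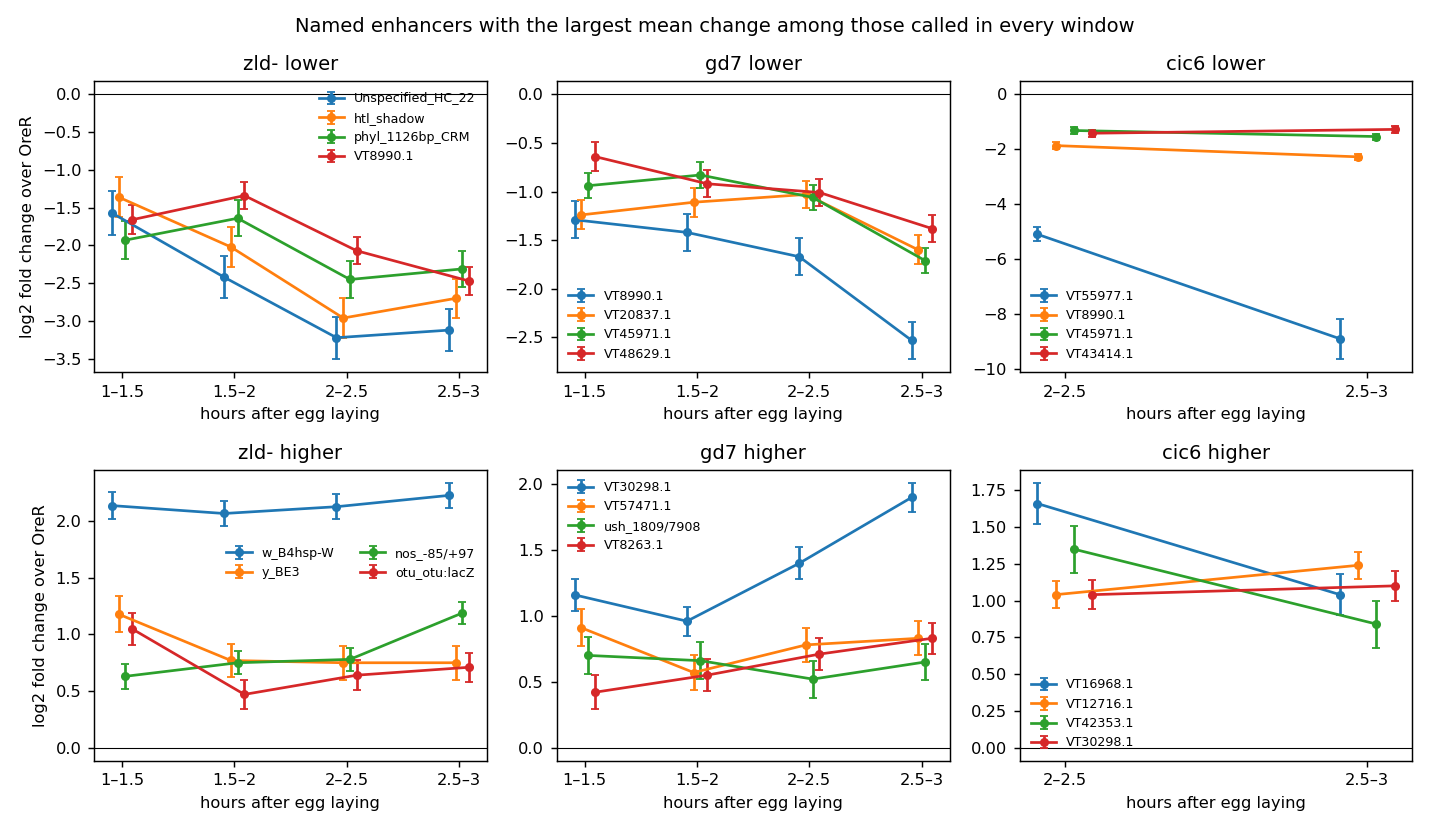
Log2 fold changes over OreR in the authors' deposited tables, with their standard errors, by window for the 4 named enhancers of largest mean change among those called in every window, for each mutant and direction. VT8990.1 is in all 3 lower panels, w_B4hsp-W stays between 2.07 and 2.23 in zld-, and VT55977.1 reaches -8.91 in cic6, where the vertical axes differ between panels.

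The 3 named enhancers with the highest mean normalized count, averaged over the 3 tables, gave no common picture. VT10920.1 (chr2L:21434189-21436302) had 24305 and lies among the histone genes, whose copies are near-identical, so its reads may be shared among them and its values are uncertain. VT20956.1 (chr2R:22688854-22690967), 923 bp from Ppa, had 6959 and was lower in every zld- window at -1.49 (SE 0.27), -1.38, -1.59 and -1.21 in the authors' deposited table. The miR-309-6_8-miR enhancer (chr2R:19659959-19662072) is named after a cluster of early microRNAs that clear maternal transcripts. Its averaged count was 6759, and at 0.34, -0.86, -1.23 (SE 0.35, adjusted p 0.00377) and -0.85 it was lower in zld- in the third window only.

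The named enhancers were also grouped by the nearest gene end within 10 kb, over 15 lists of genes. The lists hold 126 genes, of which 125 were found in the annotation and 74 had at least 1 named enhancer, 149 in all. The counts below stand against all named enhancers, of which 27.5%, 10.5%, 18.1% and 22.1% were lower in zld- in order of age, and all tested regions, with 15.6%, 7.49%, 13.4% and 17.1%. In cic6 38.4% and 20% of all named enhancers were higher in the 2 windows, and 26.2% and 14.0% of all regions. None of these shares is matched to the lists by mean normalized count, with which fold changes in cic6 vary. At the counts of gene-named enhancers 41% of unnamed regions were higher in cic6 at 2 to 2.5 h, and at those of Unspecified ones 58.3%. The median log2 fold change of all regions lay between -0.02 and 0.04 in every comparison. At the 9 pair-rule genes, which set up the segments, 27 named enhancers were lower in zld- in 9, 11, 14 and 15 cases in order of age. Their medians in the authors' deposited table were -0.18, -0.39, -0.56 and -0.52, and 4 fell from first to last window. The eve_stripe2 enhancer, which drives the second stripe of even-skipped, was lower in every window at -0.50, -0.94, -0.88 and -0.88 in the authors' deposited table. The odd_-5_construct was lower in every window at -0.55, -1.39, -1.46 and -1.23. The h_stripe1 enhancer of hairy was at 0.03 in the first window, which did not pass, and lower at -1.19, -0.96 and -0.58 later. In cic6, 17 of the 27 were higher and 1 lower at 2 to 2.5 h, and 2 were higher and 1 lower at 2.5 to 3 h. In gd7 2 of the 27 were higher in the first window, where 3.6% of all named enhancers and 4.47% of all regions were. The 9 lower in the first zld- window are a share near that of all named enhancers.

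All 6 named enhancers at genes of the Notch pathway were lower in zld- at 1 to 1.5 h, and 2, 3 and 3 were lower in the later windows, with medians of -1.33, -0.08, -0.37 and -0.35 in the authors' deposited table. All 6 lie in the E(spl) cluster, so they are neighbours at one locus. From first to last window 4 of the 6 rose. The m4_HZm4 enhancer was lower throughout at -1.82, -1.53, -1.69 and -1.35, while HLHmbeta at -1.24 was lower in the first window and at 0.01, -0.27 and -0.16 did not pass later in the authors' deposited table. In cic6 5 of these 6 were higher in each window.

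The 15 named enhancers at neural determination genes were lower in zld- in 8, 6, 9 and 5 cases. The ac_0.8 element at achaete, a proneural gene, was at -1.40, -1.41, -1.83 and -1.70 in the authors' deposited table, and wor_CRM3 at worniu, a gene of neural stem cells, at -1.06, -0.67 and -0.60 and then at -0.01, which did not pass. The 4 tiles at kek1 and the argos_aos292 enhancer make up the list of EGF receptor and Torso targets, and kek1 and aos both encode inhibitors of EGF receptor signalling. They were lower in zld- in 4, 3, 4 and 5 cases. In cic6 argos_aos292 was higher in both windows, at 1.04 and 0.90, while 2 of the kek1 tiles, VT6544.1 and VT6549.1, were lower in both in the authors' deposited table. In the first window of the authors' deposited table for zld-, 3 of 9 were lower at gap genes, 5 of 14 at segment polarity genes, 3 of 4 at mesoderm genes and 6 of 10 at neuroectoderm genes, and 1 of 4 at FGF genes, 1 of 6 at genes of differentiated neurons and muscle and both enhancers at early zygotic genes, HC_13 and HC_22. At 2.5 to 3 h these counts were 3, 2, 1, 2, 0, 1 and 2. The 1 named enhancer at a ribosomal protein gene passed in no zld- window and was lower in both cic6 windows. A list of 18 regions named after odorant, taste and vision genes was drawn up after the names had been read. Of these 18, 4, 2, 3 and 4 were lower in zld-, near the shares of all named enhancers. Higher were 2, 1, 4 and 4, where 4.66%, 3.1%, 5.68% and 11.3% of all named enhancers and 10.4%, 4.66%, 7.82% and 14.0% of all regions were. The 4 of 18 at 2 to 2.5 h and at 2.5 to 3 h lay above both shares. The 28 named enhancers at Hox genes, which give segments their identity, were lower in zld- in 7, 5, 7 and 8 cases, shares near those of all named enhancers, and higher in 0, 1, 0 and 3, and 17 were higher in cic6 at 2 to 2.5 h and 5 at 2.5 to 3 h.

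At terminal and gut genes 8 of 9 named enhancers were higher in cic6 at 2 to 2.5 h, where 38.4% of all named enhancers and 26.2% of all regions were, and 9 of 9 at 2.5 to 3 h (20% and 14.0%), with medians of 0.81 and 0.69 in the authors' deposited table. The fkh_-2_construct at fork head, a gene of the fore- and hindgut, was at 1.16 and 0.78, and VT42351.1 at srp at 1.01 and 0.65. VT42351.1 was also lower in every zld- window, at -1.28, -1.52, -1.69 and -1.71 in the authors' deposited table. In the list of dorsal ectoderm and BMP genes 8 of 9 were higher in cic6 at 2 to 2.5 h and 7 of 9 at 2.5 to 3 h. Segment polarity genes had 10 of 14 higher and then 4, neuroectoderm genes 6 of 10 and then 0, neural determination genes 8 of 15 and then 2, mesoderm genes 3 of 4 and then 2, and gap genes 1 of 9 and then 3 in the cic6 windows. Calls also went the other way. Lower in the 2 cic6 windows were 4 and 4 at neural determination genes, 1 and 3 at gap genes and 0 and 1 at neuroectoderm genes. Of all named enhancers 17.2% and 10.6% were lower there, and of all regions 22.8% and 13.7%. Of the 9 at dorsal ectoderm and BMP genes, 3, 5, 2 and 3 were higher in gd7 in order of age, where 3.6%, 10.8%, 1.55% and 3.02% of all named enhancers and 4.47%, 7.86%, 2.09% and 3.81% of all regions were, with medians of 0.39, 0.66, 0.29 and 0.45 in the authors' deposited table. Doc3_7731, at a T-box gene of the amnioserosa and dorsal ectoderm, was at 0.24 in gd7, which did not pass, and then higher at 0.90, 0.62 and 0.65. VT42372.1 at pannier, a GATA factor gene of the dorsal ectoderm, was higher in gd7 at 0.65 and 0.99 in the first 2 windows and did not pass at 0.41 and 0.51 in the authors' deposited table. In zld- 6 of the 9 were lower in the first window and 1, 3 and 5 later. Named enhancers of one list often share a gene, and the 3 mutants share OreR, so the counts describe these tables. The shares set beside them are not matched for mean count, and its part in the counts was not tested.

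**Figure D4:**
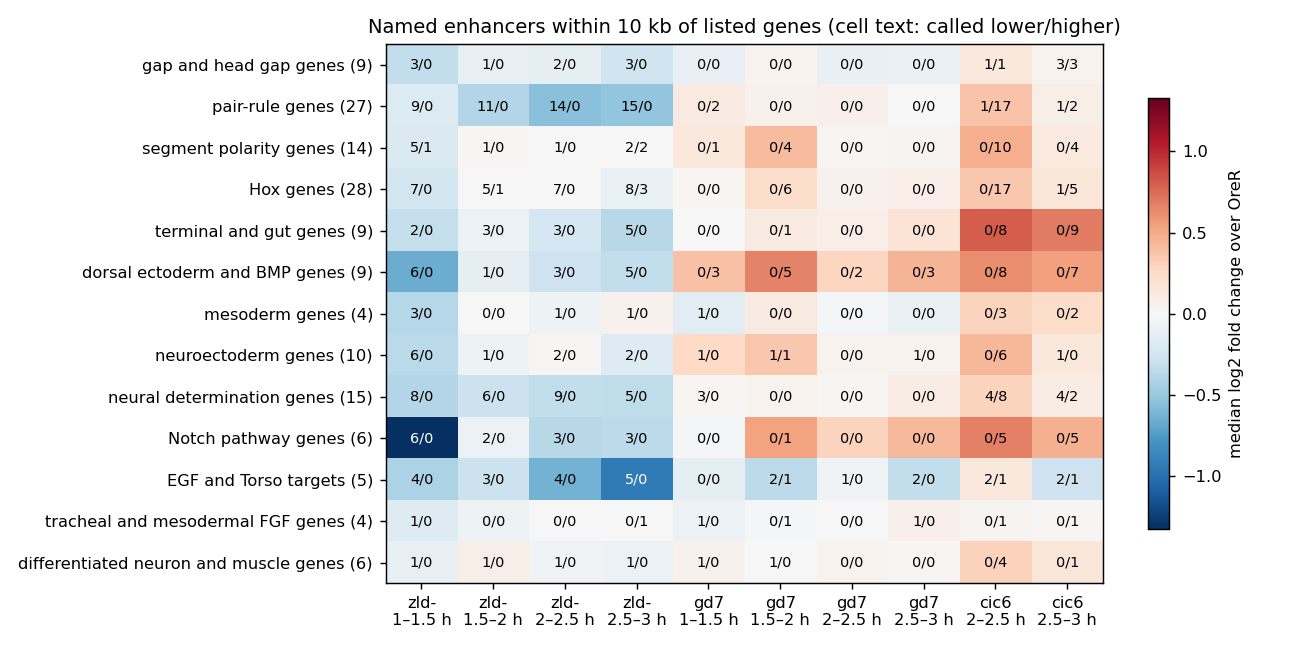
Median log2 fold change over OreR in the authors' deposited tables of the named enhancers within 10 kb of listed genes, as colour, by mutant and window, with the numbers called lower and higher in each cell and the number of enhancers after each list's name. Lists with fewer than 4 named enhancers are left out. The Notch list has 6 of 6 lower in zld- at 1 to 1.5 h, and the list of terminal and gut genes 9 of 9 higher in cic6 at 2.5 to 3 h.

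Peak lists, called by the authors in each library, gave a measure with replicates. The tested regions were themselves chosen as peaks of OreR embryos, which by itself favours a higher share in OreR than in a mutant. The p-values given below for shares of mutants against OreR do not account for that choice. OreR libraries had a peak over 83.2% ± 7.26 of the named enhancers at 1 to 1.5 h (SD, n = 3), with 74.9%, 88.2% and 86.6% in the 3 replicates. Later OreR windows had 93.8% ± 1.74, 95.2% ± 1.95 and 94.2% ± 3.04 (SD, n = 3 each). The window means of OreR had an SD of 5.61 percentage points, with p = 0.0135 when the 12 libraries were exchanged among windows in every way (exact permutation test). The call was lost with lists of equal length (SD 3.64, exact p = 0.0505) or without any one replicate, where the SD was 3.80 to 7.10 points and the exact p 0.0952 to 0.105.

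In zld- the share was 47.7% ± 33.6 at 1 to 1.5 h (SD, n = 3), with 46.2%, 82.1% and 14.9% in replicates 1, 2 and 3, so 1 replicate lay within the range of OreR. Later zld- windows had 88.2% ± 10.2, 88.5% ± 7.43 and 92% ± 4.12 (SD, n = 3 each). Averaged over windows, zld- libraries had a peak over 79.11% of the named enhancers and OreR over 91.60%, a difference of -12.49 points (two-sided p = 0.0187 by exact permutation within windows, 0.0561 after Benjamini-Hochberg adjustment for 3 mutants, lower in 10 of 12 libraries). Without zld- replicate 3 it was -5.38 points, and without the first window, an alternative chosen after seeing the data, it was -4.82 points (adjusted p from the exact permutation 0.0922). In gd7 the difference was -4.14 points (exact permutation p = 0.0541, adjusted 0.0811, lower in 11 of 12 libraries) and in cic6 -2.41 points (exact permutation p = 0.27, lower in 5 of 6 libraries). In a single window 3 libraries against 3 cannot give a p below 0.1. Here and below, the adjusted p of an alternative setting was computed beside the as-reported p-values of the other mutants.

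To compare named and unnamed regions within each library, the share of unnamed regions of equal mean count with a peak was subtracted. The difference between zld- and OreR was then -0.68 points (exact permutation p = 0.157, adjusted 0.39), in gd7 0.07 points (adjusted 0.859) and in cic6 0.40 points (adjusted 0.39), with exact permutations throughout. None of these exceeded the spread between libraries. The subtraction did not remove list length. In zld- the value was -6.57 points in the library of 21324 peaks, -4.63 in that of 6831 and -0.18 in that of 54651. In the longest of these lists both shares were high, at 96.32% and 96.50%, which leaves little room for a difference. When each list was cut to its 6831 peaks of smallest p, the length of the shortest zld- list, peaks lay over 19.21% of the named enhancers in zld- and 23.59% in OreR. This difference of -4.38 points had an exact permutation p of 0.000162 (adjusted 0.000487), with 11 of 12 zld- libraries below OreR's mean for the window. Against unnamed regions of equal count the named enhancers were then 1.73 points less often covered in zld- and 1.69 points more often in OreR. The difference of -3.42 points (exact permutation p = 6.25e-05, adjusted 0.000188) held for 12 of 12 zld- libraries, and in 3 of the 4 windows the libraries of the genotypes did not overlap. That difference was -1.54 points without zld- replicate 3, with 21324 peaks kept (exact permutation p = 0.0254, adjusted 0.0762, lower in 8 of 8 libraries). Without the first window, with 37303 peaks kept, it was -0.08 points (exact permutation, adjusted 0.859). This repeat changed the windows and the number of peaks kept together. With 6831 peaks kept, the later windows had -3.6, -1.6 and -0.2 points in zld- and -1.2, 2.0 and 2.5 in OreR, in order of age. The difference at that cut was thus not confined to the first window. The share of named enhancers with a peak itself stayed lower in zld- in both repeats, by -4.28 points (exact permutation, adjusted 0.0087, lower in 8 of 8 libraries) and -3.91 points (adjusted 0.0045, lower in 9 of 9). Both repeats were chosen after seeing the data, and the choice of the regions as OreR peaks enters both differences. Equal length kept 42055 peaks for cic6, where the share differed by -3.58 points (exact permutation p = 0.005, adjusted 0.015, lower in 6 of 6 libraries, the smallest p these permutations can give). For gd7 it kept 29989 peaks, and the share differed by -2.01 points (exact permutation, adjusted 0.188). Relative to unnamed regions of equal count, the difference at these lengths was 0.65 points in cic6, with 2 of 6 libraries below OreR's mean. In gd7 it was 0.88 points, with 3 of 12 libraries below. The fall in share in these mutants was thus no larger at named enhancers than at unnamed regions of equal count.

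**Figure D5:**
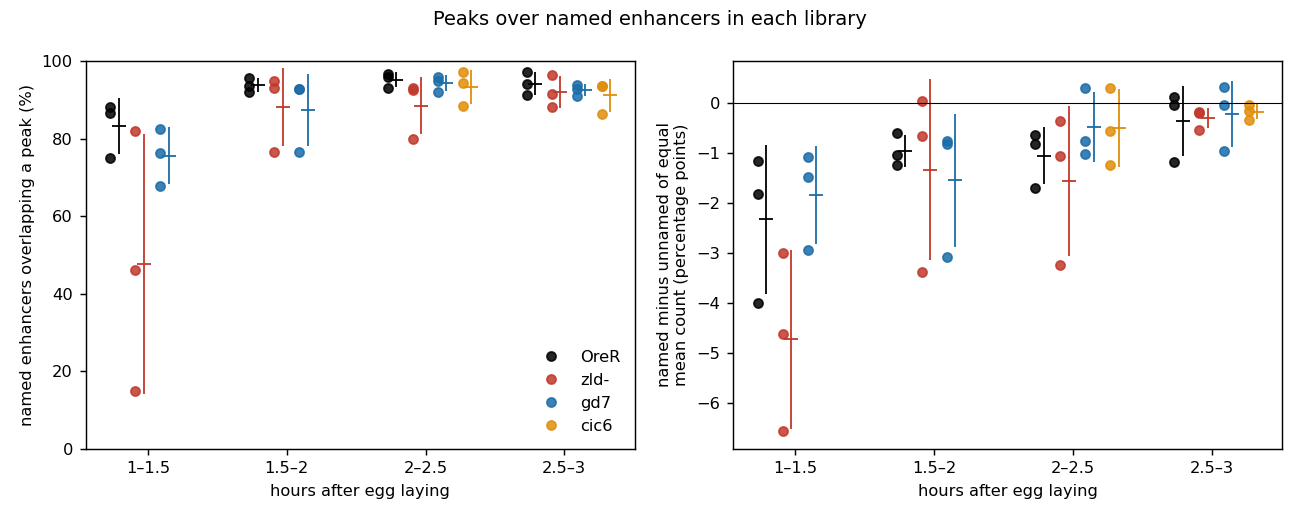
Share of the 2255 named enhancers overlapping a peak in each of the 42 libraries, in percent, and that share minus the share of unnamed regions of equal mean normalized count, in percentage points, by genotype and window, with each point 1 library and lines the mean and SD. The 3 zld- libraries of 1 to 1.5 h lie at 46.2%, 82.1% and 14.9%, and OreR libraries lie between 74.9% and 97.3%.

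A peak was listed in all 12 OreR libraries at 1314 named enhancers (58.3%), against 63.7% of all unnamed regions, and at 34 of the 40 Unspecified ones. Few named enhancers, or unnamed regions, lost their peak throughout a mutant. Of the 2255, 10 had a peak in at least 10 OreR libraries and at most 2 of the 12 zld- libraries (0.443%, against 0.522% of all unnamed regions), and 2 did so for gd7 (0.0887%, against 0.361%). In cic6 8 had a peak in at least 5 of the 6 OreR libraries of its windows and at most 1 of 6 cic6 libraries (0.355%, against 0.597% of all unnamed regions), each of them a VT tile.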

How the data were processed

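Embryos were collected from cages over 30 min, aged and sorted by hand for morphology, per the labels' protocols. The submitters' processing notes name Bowtie2 2.3.5.1, Picard 2.23.8, MACS2 2.2.7.1, DESeq2 and the build dm6, without settings. A Tn5 shift of reads or a filter is not given in the sources used here. For each library the authors deposited a peak list, called per library and not pooled. Per the file headers and the layout of MACS2, each deposited peak has a score, a ratio of fold enrichment, its p and q as −log10 (lowest −log10 q 1.30) and a summit. The authors also deposited a table for each mutant with a mean normalized count (a signal scaled for library size), a log2 fold change over OreR, its standard error, a Wald score and a p-value, raw and adjusted, for each window. No read counts per library were used, so depth is unknown, no interval for counting error is given and no model could be refitted. Calls are therefore the authors', at an adjusted p under 0.05. The adjusted p matched a Benjamini-Hochberg adjustment over all regions of a window to within 2.18e-07.

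From these, named enhancers were counted beside unnamed regions weighted to equal mean normalized count in 10 bins. Window differences were tested by the ratio of the difference of 2 fold changes to the root of their summed squared standard errors, with a normal p adjusted over all regions. The window test and the trend removal were run on simulated fold changes with normal noise at the deposited standard errors. The window test assumes such noise, so this checks its computation and not that assumption. The permutation tests were not simulated. A region had a peak where at least 1 bp overlapped, and shares of libraries were compared by exact permutation within windows, adjusted over the 3 mutants. For an alternative setting, the p-value of 1 mutant was adjusted beside the as-reported p-values of the others, not beside theirs under that setting. Gene ends are those of protein-coding genes in RefSeq Release 6, matched by symbol, with h found as hry and Dl unmatched. The regions named in detail are, per mutant and direction, the 4 with the largest mean log2 fold change among those called in every window, 1 within 20 kb, then the 3 with the largest window change in zld- and in gd7 and the 3 of highest mean count. Members of gene lists and of codes were named after their values were seen. The set, the lists and the tests were chosen with earlier results of these data known. Alternatives were a log2 size of 1, fold changes centred on the median or with their trend over 20 count bins removed, 5 or 20 bins, the counts of another table, regions beyond 500 bp of a gene end, peak summits, lists of equal length, a replicate block and leaving out each replicate. The labels do not say that replicates are separate collections, so p-values measure the spread between these libraries, which may be technical. Values were computed with Python 3.11.15, numpy 2.4.6, pandas 2.3.3, scipy 1.17.1 and matplotlib 3.10.9.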

Additional observations from a re-analysis of the deposited data

Results flagged for a closer look

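Named regions whose deposited fold changes differed between the first and the last window, by the test of that difference over all regions, are given here as values of last minus first window on the log2 scale. In zld- the difference was -1.55 at Unspecified_HC_22, -1.34 at htl_shadow, -0.81 at VT8990.1 and -1.75 at Unspecified_HC_09. It was 0.56 at nos_-85/+97, 1.98 at VT32774.1 and 1.67 at HLHmgamma_HZmgammaKX. In gd7 it was -1.24 at VT8990.1, -0.77 at VT45971.1, -0.74 at VT48629.1, -1.47 at VT8510.1 and -1.29 at VT41876.1, and 0.74 at VT30298.1. In cic6 it was -3.81 at VT55977.1, between 2 to 2.5 h and 2.5 to 3 h. VT32774.1, Unspecified_HC_09, HLHmgamma_HZmgammaKX, VT8510.1 and VT41876.1 were named for this difference.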

How the results depend on the processing

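The difference of medians between named and unnamed regions stayed within 1 median standard error of its reported value in all 40 alternatives (5 and 20 bins, the counts of another table, regions beyond 500 bp of a gene end). That margin, 0.11 to 0.16, is wider than the differences themselves, which lay between -0.106 and 0.060. It therefore does not test their direction. A log2 size of at least 1 left 137, 53, 122 and 126 lower and 4, 1, 1 and 3 higher calls in zld- in order of age, 3, 2, 5 and 12 lower and 9, 16, 1 and 2 higher in gd7, and 7 and 8 lower and 30 and 5 higher in cic6. Higher calls in zld- at 1.5 to 2 h numbered 34 after centring and 28 with the count trend removed. Without that trend gd7 had 55 lower and 119 higher at 1.5 to 2 h, 22 higher at 2 to 2.5 h and 79 lower at 2.5 to 3 h, and cic6 had 105 lower and 464 higher at 2 to 2.5 h and 148 lower at 2.5 to 3 h. Falls between first and last window numbered 12 after centring and 9 without the trend in gd7, and 2 without the trend in cic6. The other counts of calls and of window changes stayed within 1.5 times, and of the single regions VT8510.1 alone lost its call, at -1.44 after centring and -1.36 without the trend. The cause was not tested.

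For the share with a peak, zld- minus OreR, the value was -13.05 points with summits inside the region (exact permutation, adjusted 0.0445) and -4.38 with lists of equal length. Equal length also gave -3.58 in cic6 and an SD of 3.64 for the OreR windows. Relative to unnamed regions, equal length gave -3.42 in zld- and 0.65 in cic6. For the share itself in zld-, a further pair of repeats of equal length was chosen after seeing the data. It gave -4.28 without zld- replicate 3 and -3.91 without the window of 1 to 1.5 h. Leaving out 1 replicate gave -17.90 to -5.38 in zld- (adjusted 0.0255 without zld- replicate 1 and 0.012 without replicate 2) and 3.80 to 7.10 for the SD of OreR windows. Relative to unnamed regions the gd7 difference changed sign, at -0.06 without gd7 replicate 1, -0.13 without gd7 replicate 3 and -0.12 without OreR replicate 1, over a range of -0.13 to 0.40. That SD for OreR windows was 0.41 to 1.23, the latter without replicate 2 (exact permutation p = 0.0286).

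Whether replicate numbers pair the libraries is not settled by these lists. Of 30 pairs 1 had a correlation over 0.1, over a range of -0.09 to 0.15, and 15 libraries correlated best with their own number. In gd7 at 1 to 1.5 and 1.5 to 2 h and in cic6 at 2 to 2.5 h, 3 of 3 libraries did so. In gd7 at 2 to 2.5 h and in cic6 at 2.5 to 3 h, 0 of 3 did. With the replicate block the share was -12.49 points in zld- (exact permutation, adjusted 0.0381) and -4.14 in gd7 (adjusted 0.0264), and the block changed no other call. Each of these was adjusted beside the p-values of the other mutants without the block. The block pairs libraries by the replicate numbers of their titles, and OreR and gd7 libraries also carry other replicate numbers. The p-values with the block therefore hold only if the title numbers mark libraries made together, which is unknown. Unknown depth, the uneven zld- lists of 1 to 1.5 h and the shared OreR libraries limit all of these values.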
